A study of Mus musculus with 8 samples.

Results

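Low oxygen can act on chromatin directly, because the JmjC histone lysine demethylases need molecular oxygen, iron and 2-oxoglutarate to remove methyl groups. The 10 genes described here encode such enzymes: Kdm2a, Kdm2b, Kdm3a, Kdm3b, Kdm4a, Kdm4b, Kdm4c, Kdm5a, Kdm5b and Kdm6b. They were taken by name from the 49943 genes of a RefSeq table. Every ATAC-seq peak within 10 kb of their gene bodies in the mouse assembly GRCm38 was collected, which gave 29 merged regions of the 40784 in the series. Regions were taken by gene name and distance alone, and the genes were picked with earlier results of these data known.

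The cells were BV2, a mouse microglial line, and the second line was GL261, a mouse glioma line. ATAC-seq maps open chromatin through the sites where the Tn5 transposase can insert adapters. BV2 cells were grown alone (monoculture) or seeded at 1 part to 2 parts of GL261 cells (co-culture), and each culture was then held for 16 h at 21% oxygen (normoxia) or below 0.1% oxygen (hypoxia). Each of the 4 groups had 2 libraries, described by the submitters as biological replicates. Cells of all groups were fixed with 1% formaldehyde, the hypoxic ones before they left the chamber. The protocol text gives a sort on the leukocyte antigen CD45 or on GFP, without stating which was used for which library, and then 50000 cells per transposition. BV2 is 1 immortalised line and GL261 is another, so each group models these lines and not brain tissue. Apart from the GFP of the sort, no genotype, transgene or drug is named for any group.

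Histone demethylases are read by the methyl mark that they remove. Kdm2a and Kdm2b act on H3K36, and both carry a CXXC domain that binds unmethylated CpG DNA. Kdm3a and Kdm3b remove lower methylation states of H3K9, and the Kdm4 enzymes remove higher states of H3K9 and also act on H3K36. Kdm5a and Kdm5b remove H3K4 methylation, a mark of active start sites, and Kdm6b (also called JMJD3) removes the repressive mark H3K27me3 and is known as a gene induced in stimulated macrophages. Kdm3a, Kdm4b and Kdm4c are known targets of the hypoxia-inducible factors, transcription factors that bind a short core, ACGTG or GCGTG, in hypoxia response elements.

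Upstream sequences are shown for the genes whose start sites carried the clearest contrasts in these lists: an open and a closed start of the same gene (Kdm4c), a start with peaks in co-culture lists alone (Kdm2b), a start open in every list (Kdm3a) and a start with no peak in any list (Kdm5b). RefSeq windows of GRCm38.p6 were found for 5 of the 10 genes (Kdm2b, Kdm3a, Kdm4a, Kdm4c and Kdm5b), as 11 windows of the 250 bases before a start site. Each sequence below runs 5′ to 3′ on the gene's own strand, and capitals mark ACGTG or GCGTG on either strand, so a match on the opposite strand reads CACGT or CACGC, and the palindrome CACGTG counts on both strands.
Kdm4c inner start, chr4:74251629-74251878, plus strand: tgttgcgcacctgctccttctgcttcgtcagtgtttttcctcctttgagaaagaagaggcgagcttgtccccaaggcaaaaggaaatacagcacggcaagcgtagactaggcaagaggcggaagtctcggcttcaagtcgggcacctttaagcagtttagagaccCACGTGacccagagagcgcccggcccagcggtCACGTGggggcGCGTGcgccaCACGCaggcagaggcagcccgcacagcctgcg
Kdm4c outer start, chr4:74242247-74242496, plus strand: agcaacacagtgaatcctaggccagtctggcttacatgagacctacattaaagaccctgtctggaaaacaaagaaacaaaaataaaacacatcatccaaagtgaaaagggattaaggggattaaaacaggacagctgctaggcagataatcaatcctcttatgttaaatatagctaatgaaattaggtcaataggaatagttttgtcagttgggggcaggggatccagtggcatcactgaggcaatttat
Kdm2b inner start, chr5:122900368-122900617, minus strand: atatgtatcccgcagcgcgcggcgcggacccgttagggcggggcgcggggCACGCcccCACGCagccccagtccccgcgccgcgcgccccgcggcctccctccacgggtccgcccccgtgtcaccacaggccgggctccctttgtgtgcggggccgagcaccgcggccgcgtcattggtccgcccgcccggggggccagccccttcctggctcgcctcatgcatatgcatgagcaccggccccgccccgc
Kdm3a upstream start, chr6:71632918-71633167, minus strand: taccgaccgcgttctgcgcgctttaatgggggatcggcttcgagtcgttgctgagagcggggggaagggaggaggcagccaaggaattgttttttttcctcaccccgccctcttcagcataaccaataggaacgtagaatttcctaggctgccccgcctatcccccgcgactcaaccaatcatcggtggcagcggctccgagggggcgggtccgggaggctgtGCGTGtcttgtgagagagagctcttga
Kdm5b start, chr1:134559928-134560177, plus strand: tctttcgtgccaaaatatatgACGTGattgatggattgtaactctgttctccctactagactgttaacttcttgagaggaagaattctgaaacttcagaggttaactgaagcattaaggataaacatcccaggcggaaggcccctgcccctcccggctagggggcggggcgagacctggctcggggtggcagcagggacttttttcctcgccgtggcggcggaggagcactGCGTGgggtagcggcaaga

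The core was present in 7 of the 11 windows of these genes, some of which overlap, and in 38.6% of all 32851 windows of the same length. The Kdm4c inner window held 6 matches, of which 4 came from the 2 palindromes, while the window at the outer start of the same gene held 0. The inner window had a GC content of 60.4% and an observed to expected CpG ratio of 0.83, against 39.6% and 0 at the outer start and medians of 52.4% and 0.37 over all windows. The Kdm2b inner window was the richest of those printed, at 78% GC and a CpG ratio of 0.97, and held 2 matches. The printed Kdm3a window held 1 match. The window of another Kdm3a start within the same region (start site 71632686), not printed, held 0, as did that of a start inside the gene (71609139) with no peak. The Kdm5b window held 2 matches although no list had a peak there. The Kdm4a window, not printed, held 0 matches although all 8 lists had a peak at that start. Matches describe letters in these windows and no binding was measured.

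The deposited lists held 9910 to 29658 peaks, and the shortest were the 2 of normoxic monoculture. Within the lists, the most common background level ran from 0.758 to 1.45 fragments per position, and the median peak summit held 18 to 30 fragments. The start of Ptprc, which encodes CD45, had a peak in all 8 lists. Of 10 microglia and macrophage markers 7 had a start region in at least 1 list, while Csf1r, Aif1 and Itgam had none. Of the 29 regions of these markers, 10 (34.5%, against 17.7% of all regions) had a peak in both hypoxic and neither normoxic monoculture list. Both normoxic co-culture lists and neither normoxic monoculture list had one in 6 (20.7%, against 12.5%). Between the hypoxic cultures that count was 0 (against 5.83%). Of 10 glioma and glial markers, Gfap, Olig1, Olig2, Cspg4, Pdgfra, Ptprz1 and Sox9 had no start region in any list. Of the 19 regions of that list, 0 to 3 had a peak in a monoculture library and 5 to 16 in a co-culture library. Over all regions the shares were 23.1% to 62.3% and 51.5% to 70.7%, and the 16 came from the longest list. In normoxia 3 of the 19 (15.8%, against 12.5% of all regions) had a peak in both co-culture lists and in neither monoculture list. The reverse held for 1, against 0.181%. In hypoxia 3 had that pattern (15.8%, against 5.83%) and 0 the reverse (against 3.76%). None had a peak in all 4 co-culture lists and no monoculture list, against 1.98%. The Sox2 start had a peak in 3 of 4 co-culture lists, the Nes and Slc1a3 starts in 2 each, and none in monoculture. The same list stands beside every co-culture result below, and its part in them was not tested. An accessible site in fewer cells and a less accessible site in each cell cannot be told apart in such bulk libraries. The deposited peak names carried a tag of a single kind in the 4 normoxic lists and of another kind in the 4 hypoxic lists, with no stated meaning, so whatever it marks cannot be told apart from oxygen.

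The demethylase regions had the fewest peaks in normoxic monoculture. There 10 and 10 of the 29 regions had a peak (mean 10 ± 0, SD, n = 2), and in hypoxic monoculture 17 and 18 had one (17.5 ± 0.71, SD, n = 2). Normoxic co-culture had 18 and 14 (16 ± 2.83, SD, n = 2), and hypoxic co-culture had 25 and 18 (21.5 ± 4.95, SD, n = 2). The shares were 34.5% and 34.5%, against 30.8% and 23.1% of all regions, in normoxic monoculture and 58.6% and 62.1%, against 57.3% and 62.3%, in hypoxic monoculture. They were 62.1% and 48.3%, against 51.7% and 51.5%, in normoxic co-culture and 86.2% and 62.1%, against 70.7% and 51.5%, in hypoxic co-culture. With every list shortened to its 9910 strongest peaks, the 8 counts were 7, 10, 7, 7, 10, 9, 13 and 14 in the same order of groups, where 9648 to 9886 of 19790 merged regions had a peak in a library. The 2 monoculture groups then overlapped, while the counts in hypoxic co-culture were above those of the other 3 groups.

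**Figure D1:**
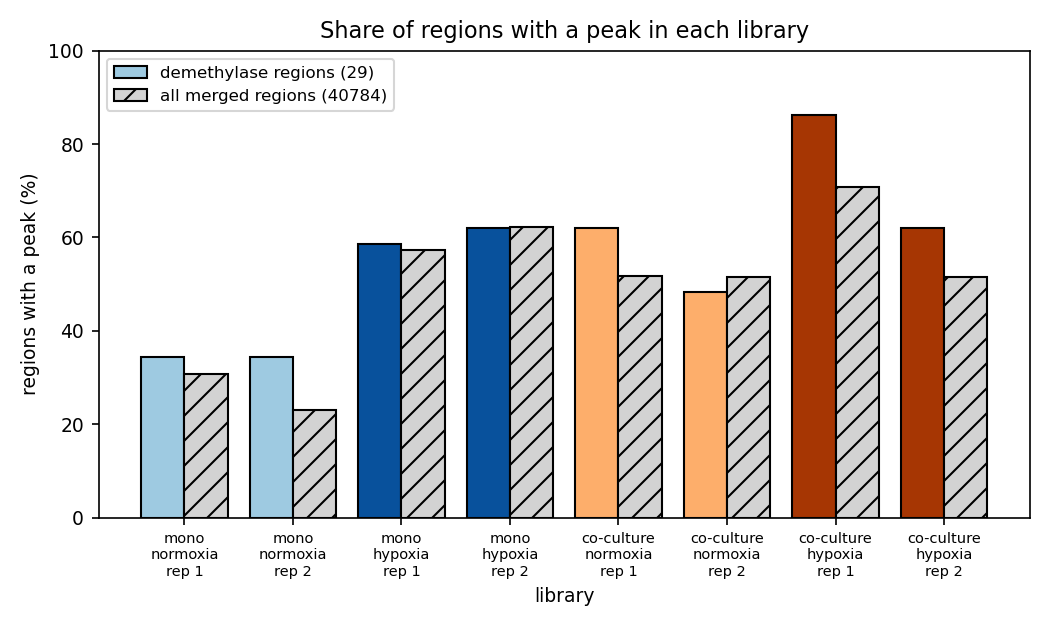
Percentage of the 29 demethylase regions (coloured by group) and of all 40784 merged regions (hatched) that had a peak in each of the 8 libraries. Both kinds of bar are lowest in normoxic monoculture and highest in hypoxic co-culture replicate 1, at 86.2% and 70.7%.

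The median was 3 regions per gene (range 1 to 5), against 1 over 21887 protein-coding genes, and these genes were long, with a median of 75.3 kb against 17.2 kb. A start site was taken from RefSeq where the strand was given; for Kdm2a, Kdm3b, Kdm4b, Kdm5a and Kdm6b no strand was given, and either end of the gene was used. By that rule 8 regions lay within 1 kb of a start, in 8 genes, and 5 of those 8 had a peak in all 8 lists, against 1 of the 21 regions elsewhere. The 5 belong to Kdm3a, Kdm4a, Kdm4b, Kdm4c and Kdm5a. Over all regions, 6 of 29 (20.7%) had a peak in all 8 lists, against 15.6% of the series, and 4 of 29 (13.8%) had one in a single list, against 26.7%. By gene ends alone, 4 of the 10 genes had a region in all 8 lists within 1 kb, against 18.3% of protein-coding genes, and 4 of 10 had no region there, against 50.8%.

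**Figure D2:**
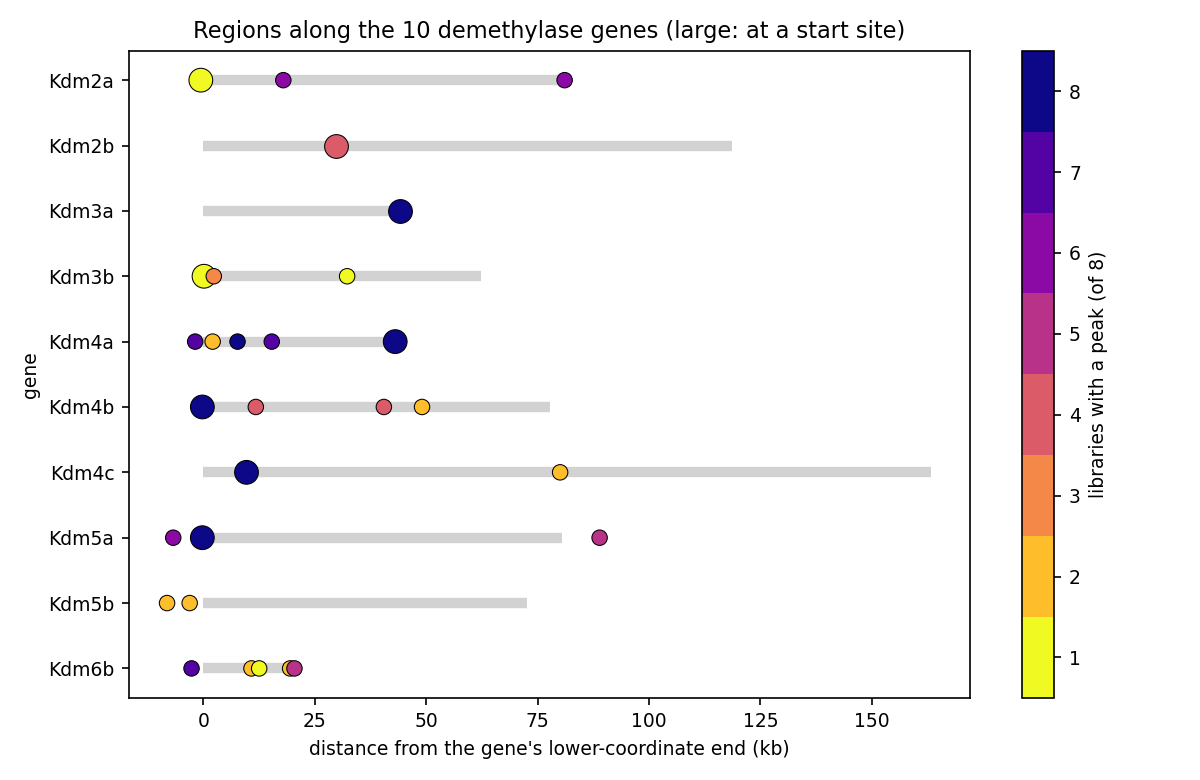
The 10 demethylase genes drawn to scale as grey bars from their lower-coordinate end, with distance in kb on the horizontal axis. Each dot is a merged region coloured by the number of the 8 libraries with a peak, and large dots lie within 1 kb of a start site. The dark large dots are the 5 starts with a peak in all 8 lists (Kdm3a, Kdm4a, Kdm4b, Kdm4c and Kdm5a).

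Below, the strength of a peak is its percentile, the rank of its deposited −log10 p within its own list (0 weakest, 100 strongest), given in the order normoxic monoculture, hypoxic monoculture, normoxic co-culture and hypoxic co-culture, replicate 1 before replicate 2. A longer list adds weak peaks and so raises the percentile of the same peak, and list lengths differed, so percentiles of different libraries are descriptions and not tests. A region is placed by the distance of its centre from the lower-coordinate end of the gene. A region counted as gained in a comparison if the first group had a peak in 2 of 2 lists and the second in 0 of 2, and as lost if the counts were the other way round. These calls are counts without a test, since 0.33 is the smallest p that an exact permutation test of 2 libraries against 2 allows, and each is read beside the share of all 40784 regions called the same way.

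**Figure D3:**
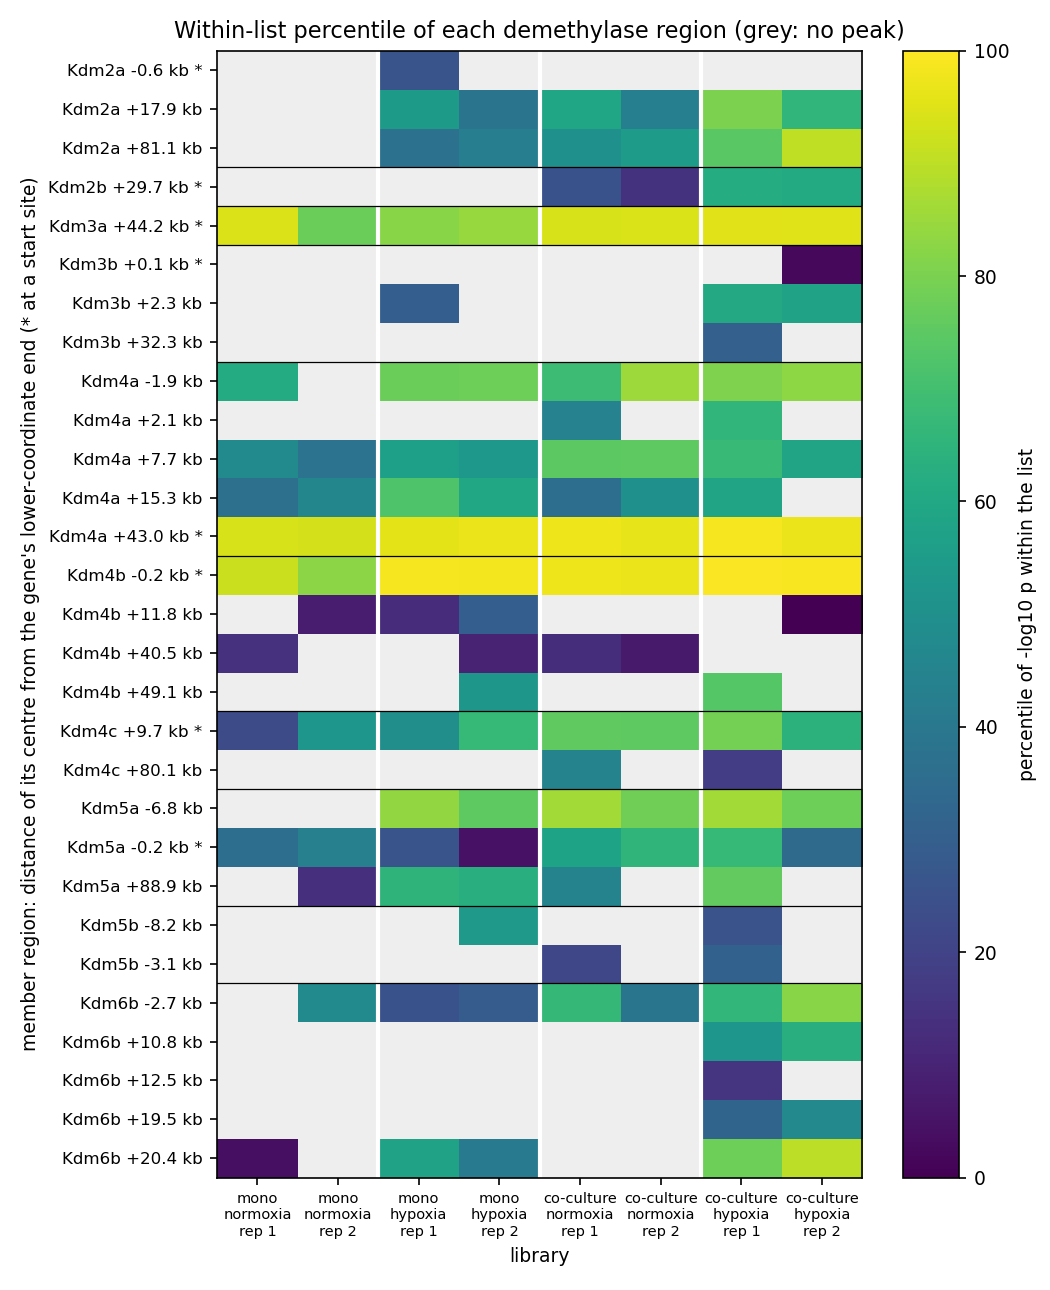
Within-list percentile of −log10 p (colour, 0 to 100) of the 29 demethylase regions in the 8 libraries, with grey for no peak. Rows are labelled by gene and distance from its lower-coordinate end, and asterisks mark regions within 1 kb of a start site. The starts of Kdm3a, Kdm4a and Kdm4b stay at or above percentile 77.7 in every list, and the left 2 columns (normoxic monoculture) hold the most grey.

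Kdm2a and Kdm2b had no peak in normoxic monoculture. Kdm2a (chr19:4316144-4398721) had a region 17.9 kb into the gene body, chr19:4333702-4334448, with percentiles of 54.6 and 38.5, 59.3 and 43.0, and 80.3 and 65.9 in the 3 other groups. Its region 81.1 kb in, chr19:4396842-4397577, lay 1144 bp inside the upper end and overlapped the gene 9430078G10Rik. That region had percentiles of 37.2 and 42.7, 50.2 and 55.3, and 74.5 and 90.4. Both had their highest percentiles in hypoxic co-culture, whose lists held 29658 and 21633 peaks against 21790 and 21826 in normoxic co-culture. A region 377 bp outside the lower end had a peak in hypoxic monoculture replicate 1 alone, at percentile 26.1.

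Kdm2b (chr5:122870664-122989270), which tethers a Polycomb complex to CpG islands, had a single region, chr5:122900066-122900617, over its inner start sites 29.7 kb into the gene. It had no peak in the 4 monoculture lists and one in each co-culture list, at percentiles of 25.3 and 14.5 in normoxia and 62.1 and 61.0 in hypoxia. The summits held 13 and 11 fragments in normoxic co-culture over expected levels of 1.2 and 1.38, and 31 and 31 in hypoxic co-culture over 2.38 and 2.76. Fragments and expected levels were thus both higher in hypoxic co-culture. It was the only 1 of the 29 regions (3.45%) gained in all 4 co-culture against all 4 monoculture libraries, against 1.98% of all regions, and 0 were lost, against 0.027%. With lists of 9910 peaks it was left in hypoxic co-culture replicate 2 alone. The outer start sites had no region within 25498 bp. Of 40 other genes of histone and DNA methylation, 1, the H3K36 methyltransferase Nsd2, had the same presence at its start across the 8 libraries, a pattern shared by 806 regions of the series.

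The H3K9 demethylase Kdm3a (chr6:71588970-71632990) had 1 region, at its start (chr6:71632658-71633623), with a peak in every list. Its percentiles were 94.8 and 77.7, 82.4 and 84.7, 93.9 and 94.5, and 95.4 and 94.9, and the co-culture libraries were closely alike. The paralogue Kdm3b (on chromosome 18, 62.4 kb long) was far weaker. At its lower end it had a peak in hypoxic co-culture replicate 2 alone, at percentile 2.17. A region 2.33 kb in had percentiles of 60.5 and 57.8 in hypoxic co-culture and 29.8 in hypoxic monoculture replicate 1, and a region 32.3 kb in had a peak in hypoxic co-culture replicate 1 alone. No normoxic list had any Kdm3b peak, and neither had that of hypoxic monoculture replicate 2.

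The Kdm4a start (chr4:118179557-118180440) had percentiles of 93.9 and 93.7, 96.0 and 97.1, 97.5 and 96.4, and 98.8 and 97.1. A region 7.66 kb from the lower end of Kdm4a also had a peak in all 8 lists, at percentiles of 47.6 and 38.2, 56.6 and 53.3, 74.8 and 75.2, and 67.3 and 58.3. A pair of further Kdm4a regions had a peak in 7 of 8 lists. The region 15.3 kb in was missing from hypoxic co-culture replicate 2, and the region 1466 bp outside the lower end, which lies at an end of St3gal3, was missing from normoxic monoculture replicate 2.

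At Kdm4b (chr17:56325970-56403774) the region over the lower end, chr17:56325341-56326125, had percentiles of 92.0 and 82.5, 98.6 and 98.1, 97.3 and 96.9, and 99.6 and 99.1. Its summits held 42 and 33, 124 and 122, 95 and 113, and 238 and 209 fragments, over expected levels of 3.07 and 3.51, 8.62 and 8.95, 7.48 and 8.41, and 14.5 and 16.0. Fragments and expected levels were thus both higher in each hypoxic pair than in the normoxic pair of the same culture. The deposited folds, the authors' ratios of summit to background within each list, were 10.6 and 7.54, 13.0 and 12.4, 11.3 and 12.1, and 15.4 and 12.4. Inside the gene, a region 40.5 kb in was weak wherever it was found, with percentiles of 7.34 to 14.2 in 4 lists, and was the only member region lost with hypoxia in co-culture. The regions 11.8 and 49.1 kb in had a peak in 4 and 2 lists.

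Kdm4c (chr4:74242497-74405864) had its constant region, chr4:74251281-74253056, at the inner start, the one whose upstream window held 6 matches to the hypoxia response core. The percentiles there were 22.9 and 52.4, 49.3 and 67.0, 75.7 and 75.2, and 79.2 and 64.3. The co-culture libraries were above the monoculture ones of the same oxygen level in normoxia and overlapped them in hypoxia. The outer start, whose window held no match, had no region within 8784 bp. A region 80.1 kb in had a peak in replicate 1 of each co-culture group.

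Among the H3K4 demethylases, Kdm5a (chr6:120364099-120444574) had a region in all 8 lists over its lower end, chr6:120363280-120364433, which also covers an end of Ccdc77. Its percentiles were 36.2 and 43.4, 26.0 and 5.00, 58.0 and 65.5, and 66.9 and 34.4, lowest in hypoxic monoculture. A second region 6514 bp outside the gene, chr6:120357066-120357585, lies inside Ccdc77. It was missing from normoxic monoculture and strong in the other groups, at percentiles of 83.8 and 75.1, 86.2 and 78.5, and 85.9 and 77.8. The summits in those 6 libraries held 35 to 56 fragments. Kdm5b (chr1:134560178-134632878) had no region within 2817 bp of its start. Its 2 regions, both in Mgat4e, had a peak in 2 lists each, at percentiles of 21.3 to 54.1.

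Kdm6b (chr11:69398508-69420367), the H3K27 demethylase, had 5 regions in the shortest gene of the group, and 2 of them were found in hypoxic co-culture alone in both replicates. The region 10.8 kb in, chr11:69408667-69409920, had percentiles of 52.4 and 62.8 there, and the region 19.5 kb in, chr11:69417672-69418276, had 32.1 and 47.2. The region 20.4 kb in, chr11:69418659-69419212, lies 1155 bp inside the upper end. It had no peak in normoxic co-culture and percentiles of 77.9 and 90.2 in hypoxic co-culture, against 57.7 and 41.2 in hypoxic monoculture and 4.25 in normoxic monoculture replicate 1. The summits of this region held 72 and 96 fragments in hypoxic co-culture, against 30 and 24 in hypoxic monoculture and 7 in normoxic monoculture replicate 1. The peak caller's own expected level there was 10.6 and 11.1 fragments in hypoxic co-culture, against 3.13 and 2.62 in hypoxic monoculture, and the deposited folds were 6.27 and 8.04 in the former lists and 7.50 and 6.92 in the latter. The regions 19.5 and 20.4 kb in overlap the gene model Gm51903. A region 12.5 kb in had a peak in hypoxic co-culture replicate 1 alone. Outside the gene, a region 2189 bp below the lower end, at ends of Cyb5d1, Naa38 and Tmem88, had a peak in 7 of 8 lists.

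Between hypoxic and normoxic monoculture, peaks differed at Kdm2a and Kdm5a. In that contrast 3 of the 29 regions (10.3%) were gained, against 17.7% of all regions, namely the Kdm2a regions 17.9 and 81.1 kb in and the Kdm5a region in Ccdc77. No member region was lost, against 0.179%. The same 3 regions were missing from the 2 normoxic monoculture lists only, the shortest of the 8, as were 4.97% of all regions. With lists of 9910 peaks the Kdm5a region alone stayed gained, against 7.39% of 19790 regions, and 2 regions were lost, against 5.15%: the Kdm4a region 7.66 kb in and the one at the lower end of Kdm5a. Leaving out any single library of the contrast gave 5 or 6 gained, while the share of all regions rose to between 21.3% and 31.2%.

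Between hypoxic and normoxic co-culture, peaks were gained at Kdm6b and Kdm3b. There 4 of 29 regions (13.8%) were gained, against 6.09% of all regions, of which 3 were the Kdm6b regions 10.8, 19.5 and 20.4 kb in and 1 was the Kdm3b region 2.33 kb in. The single loss, at Kdm4b, was 3.45% of the members against 2.05% of all regions. The 2 groups' lists overlapped in length, at 21790 and 21826 peaks against 29658 and 21633. With lists of 9910 peaks 1 region stayed gained, the Kdm6b region 20.4 kb in, against 5.45% of regions, and without hypoxic co-culture replicate 2 the count was 9, against 21.0% of all regions. The 3 Kdm6b regions lie in a single gene and are not independent. No member region separated the 4 hypoxic lists as present from the 4 normoxic lists as absent, against 2.08% of all regions, and none showed the reverse, against 0.0196%.

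The Kdm2b start was gained with co-culture at both oxygen levels. In normoxia 4 of 29 regions (13.8%) were gained with co-culture, against 12.5% of all regions: the Kdm2b start and the same Kdm2a and Kdm5a regions that hypoxia added to monoculture. The normoxic monoculture lists are shared by both contrasts. None was lost, against 0.181%. In hypoxia 3 of 29 (10.3%) were gained, against 5.83%, namely the Kdm2b start and the Kdm6b regions 10.8 and 19.5 kb in, and none was lost, against 3.76%. With lists of 9910 peaks the normoxic gain was 1 region, the Kdm5a region in Ccdc77, against 4.88%. In hypoxia such lists gave 4 gains, against 7.39%, and these were other regions: the Kdm2a regions 17.9 and 81.1 kb in, the Kdm4a region 7.66 kb in and the Kdm6b region 20.4 kb in. Without normoxic co-culture replicate 2 the normoxic count was 7, against 21.9% of all regions. Without hypoxic co-culture replicate 2 the hypoxic count was 9, against 17.2%.

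The 6 regions with a peak in all 8 lists could be tested by their place among the 6375 regions shared by all lists. Ranks by −log10 p were turned into normal scores in each library and compared with limma, so a difference below is in normal-score units and states whether a region moved up or down among the shared regions, not its absolute accessibility. With Benjamini-Hochberg adjustment and a threshold of 0.05, 10.1% of the shared regions were called with oxygen (308 up and 335 down) and 10.8% with culture (318 up and 372 down). Ranking within the whole lists instead turned these splits to 643 up and 185 down with oxygen and 946 up and 144 down with culture. For the difference of the oxygen response between cultures 0% were called by limma, with 625 regions at an unadjusted p under 0.05.

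Of the 6, the Kdm4b start alone passed the test. It rose among the shared regions in hypoxia, by 0.72 ± 0.19 (SE) averaged over the cultures (adjusted p = 0.0459, limma, n = 4 libraries per oxygen level). Among the 6375 shared regions its percentiles were 84.7 and 73.4 in normoxic and 95.1 and 92.8 in hypoxic monoculture. In co-culture they were 91.2 and 89.9 in normoxia and 98.3 and 97.2 in hypoxia, so the 2 oxygen levels did not overlap in either culture. The call sits at the threshold: the difference kept its sign in all 14 alternatives and stayed called in 6, with adjusted p from 0.0217 to 0.158. On the scale of percentile points it was 11.1 points with an adjusted p of 0.120, and leaving out any single library except normoxic monoculture replicate 1 ended the call, with differences of 0.58 to 0.77 in those fits.

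The other 5 did not pass the test with oxygen. The Kdm5a lower end had the largest difference of these, −0.89 ± 0.31 (adjusted p = 0.0937, limma), with shared percentiles of 16.1 and 25 in normoxic against 3.58 and 0.071 in hypoxic monoculture but 17.7 and 24.4 against 28.2 and 10.2 in co-culture, where the oxygen levels overlapped. It was −0.53 without hypoxic monoculture replicate 2. The Kdm3a start gave −0.30 ± 0.22 (adjusted p = 0.393, limma), with −0.09 without normoxic monoculture replicate 1 and −0.54 without replicate 2. With ranks within whole lists it was −0.06. For the inner start of Kdm4c the oxygen difference was 0.09 ± 0.26 (adjusted p = 0.845, limma), and for the Kdm4a start it was 0.07 ± 0.19 (adjusted p = 0.834, limma). With ranks within whole lists these were 0.23 and 0.24. The Kdm4c value turned to −0.21 without normoxic monoculture replicate 1 and to −0.03 without hypoxic monoculture replicate 2. The Kdm4a region 7.66 kb in gave −0.21 ± 0.18 (adjusted p = 0.472, limma). Leaving out 1 library moved the Kdm4a start between 0.0040 (without hypoxic co-culture replicate 1) and 0.14 (without hypoxic co-culture replicate 2). The region 7.66 kb in was at −0.32 without normoxic monoculture replicate 2, and at −0.02 with ranks within whole lists.

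With culture no member region passed the test, although all 6 differences were above 0. They ran from 0.20 ± 0.19 at the Kdm4a start (adjusted p = 0.494, limma) to 0.80 ± 0.31 at the Kdm5a lower end (adjusted p = 0.112, limma). At the Kdm4c inner start the difference was 0.60 ± 0.26 (adjusted p = 0.146, limma), with shared percentiles of 39.0, 38.0, 46.0 and 35.4 in the 4 co-culture libraries against 7.15, 34.6, 14.7 and 29.2 in monoculture, which did not overlap. It was 0.30 without normoxic monoculture replicate 1, and 0.81 and past the threshold without replicate 2 (adjusted p = 0.0499, limma). At the Kdm5a lower end it was 0.44 without hypoxic monoculture replicate 2. At the Kdm4b start it was 0.47 ± 0.19 (adjusted p = 0.126, limma). Ranking within the whole lists took the Kdm5a lower end and the Kdm4c inner start past the threshold, at adjusted p of 0.0391 and 0.0491 (limma). The oxygen difference did not pass a test of a difference between cultures at any of the 6, with 1.55 ± 0.62 at Kdm5a (adjusted p = 0.489, limma) and 0.85 ± 0.45 at Kdm3a (adjusted p = 0.550, limma). The Kdm5a value was 0.84 without hypoxic monoculture replicate 2 and 0.60 with ranks within whole lists.

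**Figure D4:**
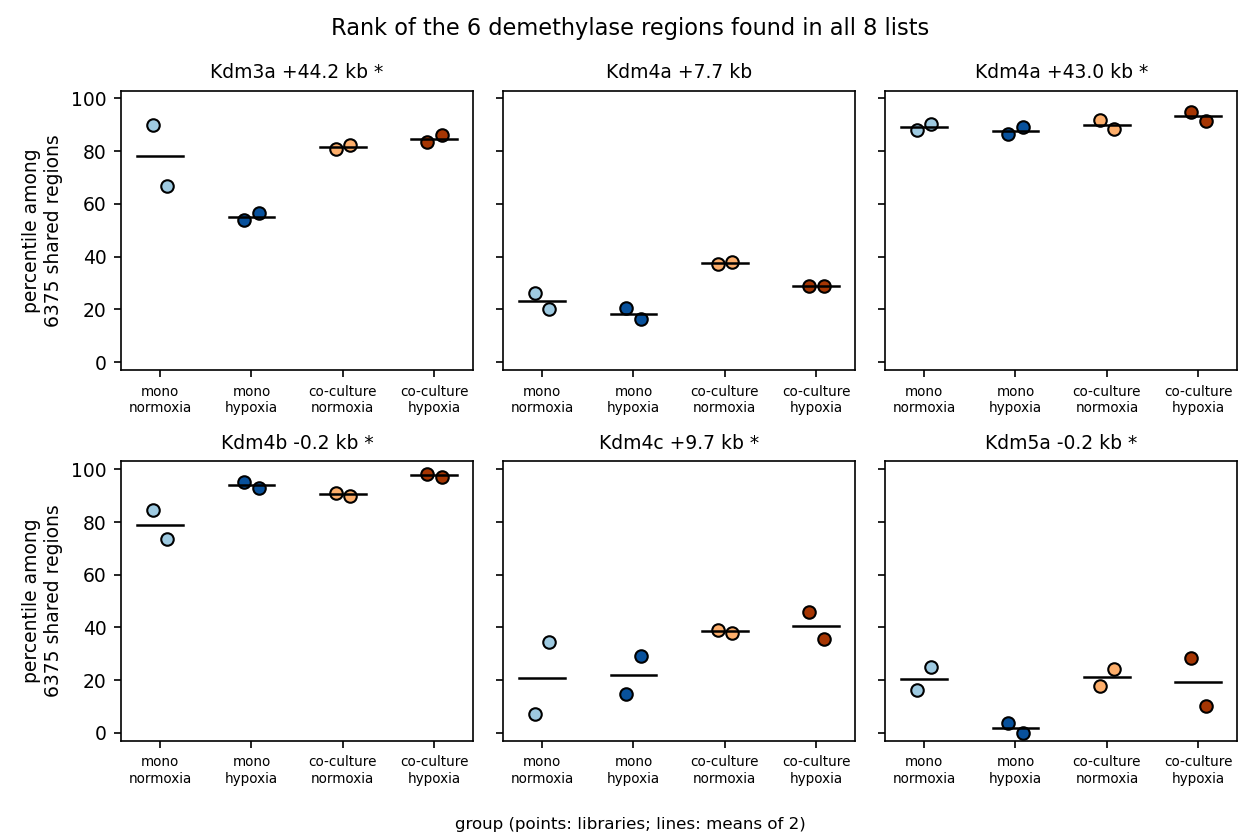
Percentile of the 6 demethylase regions among the 6375 regions shared by all 8 lists, by group, with points for libraries, lines for means of 2 libraries and asterisks for regions at a start site. Kdm4b is higher in hypoxia than in normoxia in both cultures, while Kdm5a, Kdm3a and both Kdm4a regions have their lowest mean in hypoxic monoculture.

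Other genes of the methylation machinery were counted in the same way. The genes compared were 15 further JmjC genes, 2 flavin-dependent demethylases, the methyltransferases of H3K4 (6), H3K9 (5), H3K27 (4) and H3K36 (5), and the 3 Tet dioxygenases, 40 genes with 96 regions in all. Hypoxia in monoculture gained 17 of the 96 (17.7%, against 17.7% of all regions) and lost 0 (against 0.179%), and in co-culture it gained 5 (5.21%, against 6.09%) and lost 2 (2.08%, against 2.05%). Co-culture gained 17 (17.7%, against 12.5%) in normoxia and 10 (10.4%, against 5.83%) in hypoxia, and lost 0 (against 0.181%) and 1 (1.04%, against 3.76%). Of the 40 genes, 11 had a start region in all 8 lists and 6 had none. Those 6 include the Y-linked Kdm5d and Uty, which had no region of any kind in any list. Among the 15 further JmjC genes, those with a start in all 8 lists were Kdm4d, Kdm5c, Kdm6a, Kdm8, Phf8 and Jmjd6. The X-linked relatives Kdm5c and Kdm6a thus had a constant start. Kdm5b had no region within 1 kb of its start, and Kdm6b, with no strand given, none within 1 kb of either end. The only region of the 40 genes that was present in the 4 hypoxic lists and absent from the 4 normoxic ones (1.04% of the 96, against 2.08% of all regions) belongs to Kdm7a, which encodes a demethylase of H3K9 and H3K27.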

How the data were processed

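ATAC-seq of 8 BV2 libraries was compared from 1 deposited peak list per library. Per the submitters' processing notes, Trimmomatic 0.36, HISAT2 2.1.0, Picard, SAMtools, deepTools and MACS2 2.1.1.2 were used with the build mm10, and their settings were not given in the sources used here. For every peak the deposited lists hold the authors' score, fold enrichment (a ratio of summit to background) and summit offset, besides the deposited −log10 of p and of q, the latter above 2 throughout. Peaks were called per library, so p-values were used only as ranks, and the deposited folds of different lists are printed side by side as descriptions and not compared.

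Overlapping peaks of the 8 lists were merged into regions, and genes and start sites came from RefSeq tables of GRCm38.p6. Fragments at a summit were solved from the deposited fold, taken as (n + 1)/(b + 1), and the deposited −log10 p, taken as a Poisson tail. This gave whole n to within 0.001 for 100% of 3000 sampled peaks per list. Read totals were not used here, so a region without a peak may be below what that library's depth could call. Shared regions were compared with limma 3.58.1 in R 4.3.3 in 1 fit of 4 groups without covariates. The fit was checked on simulated data. Other steps ran in Python 3.11.15 with pandas 2.3.3, numpy 2.4.6, scipy 1.17.1 and matplotlib 3.10.9. Alternatives were other rank scales, lists of equal number, a stricter q, other definitions of a region, a replicate block and leaving out each library.

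The members and lists were chosen with earlier results of these data known. All 10 genes are described. Regions are named at start sites, if called in a contrast (at most 3 per contrast and direction, those with the highest minimum percentile), if they separate 4 libraries from 4, or if past the limma threshold. Others named were chosen after their values were seen, among them the fourth call of a contrast.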

Additional observations from a re-analysis of the deposited data

Results flagged for a closer look

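The Kdm3a start, which had a peak in all 8 lists, was picked out because its place among the 6375 shared regions moved in opposite directions with oxygen in the 2 cultures. In monoculture the percentiles were 89.8 and 66.6 in normoxia against 53.7 and 56.6 in hypoxia, a difference of −23.0 points with no overlap. In co-culture they were 80.8 and 82.4 in normoxia against 83.3 and 86.1 in hypoxia, a difference of 3.11 points with no overlap. The test of the difference between cultures gave 0.85 ± 0.45 normal-score units and did not pass (adjusted p = 0.550, limma). It was 0.41 without normoxic monoculture replicate 1, 0.31 with ranks within whole lists and 1.22 with lists of equal number, and it did not pass in any alternative run (adjusted p from 0.308 to 0.921, limma). The normoxic monoculture pair differed by as much as the 2 oxygen levels did, with an SD of 16.4 points (n = 2).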

How the results depend on the processing

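Of the values for single regions, 173 kept their direction and side of the threshold, 2 reversed, 8 lost and 3 gained a call over the alternatives, and 76 counts stayed within 1.5 times of those reported while 38 did not. The Kdm4b call with oxygen lost its threshold in all 8 of the cases of loss. The 2 reversals were both of the oxygen difference at the Kdm4c inner start. Leaving out 1 library at a time, with the lone library of its group assumed to vary like the others, gave 0 to 994 regions called with oxygen and 0 to 997 with culture, where the count was 0 without any 1 of the hypoxic monoculture or co-culture libraries. Ranks within whole lists gave 1090 calls with culture and lists of equal number 409. For the difference between cultures limma called 0 regions under each alternative run, with 367 to 1425 at an unadjusted p under 0.05. Shares of all regions called under the same alternative stand in parentheses. Lists of equal number left 19 member regions, with 1 gained (7.39%) and 2 lost (5.15%) for hypoxia in monoculture, 1 (5.45%) and 0 (5.73%) in co-culture, and 1 (4.88%) and 1 (2.96%) for co-culture in normoxia. A −log10 q of at least 5 left 28, with 6 gained (20.9%) for hypoxia in monoculture, 0 lost (1.94%) for hypoxia in co-culture and 1 lost (3.95%) for co-culture in hypoxia. Leaving out 1 library gave 5 to 6 gained (21.3% to 31.2%) for hypoxia in monoculture, and 4 to 9 gained (9.51% to 21.0%) and 1 to 2 lost (2.88% to 7.01%) for hypoxia in co-culture. It gave 4 to 7 gained (15.5% to 21.9%) and 0 to 1 lost (0.491% to 2.61%) for co-culture in normoxia, and 3 to 9 gained (8.52% to 17.2%) and 1 to 2 lost (4.90% to 12.4%) for co-culture in hypoxia. It moved the oxygen difference of the Kdm4c inner start between −0.21 and 0.27. Such alternatives use fewer libraries or fewer peaks, and the cause of other changes was not tested.

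Deviations of same-numbered libraries correlated at −0.040 to 0.176 across the 6 pairs of groups. The highest value was between normoxic and hypoxic co-culture, and the next was 0.048. Whether same-numbered libraries were handled together was not tested. With a replicate block, 602 regions were called with oxygen, 617 with culture and 0 for their difference, and the Kdm4b start kept its call (adjusted p = 0.0470, limma).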
